A study of Homo sapiens with 6 samples.

Results

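The 40 genes described here encode the autophagy machinery, its cargo receptors and the MiT-TFE transcription factors. They were chosen by name, and every probe set of the array whose single gene symbol in the platform annotation was one of these names was taken. This gave 105 of the 54675 probe sets, with at least 1 for each of the 40 genes. Of the 105 probe sets, 86 passed a filter on dim signals and were tested, and 16 never left the floor of the arrays. The probe set with the highest mean over all arrays stood for its gene, so that all 40 genes were tested among 11998.

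The transcripts came from IMR32 cells, a long-established line from a human neuroblastoma, and were read on Affymetrix arrays with 3 arrays per group. The control cells received 0.1% DMSO and the treated cells 118 µM teriflunomide for 24 h, starting 12 h after seeding. Teriflunomide blocks DHODH, a mitochondrial enzyme needed to make pyrimidines. The labels call the arrays biological replicates, without saying whether they came from separate cultures, so the p-values measure only how far these arrays differ, and that spread may be technical. Whether the teriflunomide wells also held DMSO is not given in the sources used here.

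Autophagy encloses cytoplasm in a double membrane, the autophagosome, and delivers it to the lysosome. The ULK kinase complex starts the process, a lipid kinase complex marks the membrane with phosphatidylinositol 3-phosphate, WIPI proteins read that mark, and ATG2 and ATG9 supply lipid. A pair of ubiquitin-like conjugation systems then attaches ATG8 proteins (LC3 and GABARAP) to the membrane, where cargo receptors bind them. TFEB, TFE3 and MITF are related transcription factors that are held in the cytoplasm when mTORC1 is active and that switch on lysosomal and autophagy genes when they enter the nucleus.

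Values are log2 intensities, in which a step of 1 is a doubling, and the lowest value on each array was 2.18. Between 33.9% and 34.3% of the probe sets of an array lay at that value. Pearson's r over all probe sets was 0.998 to 0.999 within groups and 0.989 to 0.990 between them. Of 10 neuroblastoma markers looked at, GATA3, PHOX2A, ISL1, CHGA and MYCN were well above the floor, while TH, STMN2 and DBH lay below log2 5 on all arrays. With teriflunomide CHGA fell by 1.46 and MYCN by 0.43, while PHOX2A rose by 0.76, GATA3 by 0.35 and ISL1 by 0.22 (log2). CHGB stood at 0.30 and HAND2 at -0.04, and neither passed. The summed intensity of these 10 markers was 56567 to 58105 in DMSO and 46813 to 50913 with teriflunomide. Of 14 markers of blood, endothelial, epithelial and fibroblast cells, 11 lay below log2 5 on all arrays. Among these 11 were the fibroblast markers DCN and FAP, both at the floor. The other 3, COL1A1, COL3A1 and LUM, were bright, and COL1A1 rose by 0.94, LUM by 0.61 and COL3A1 stood at 0.37 (log2). The summed intensity of all 14 markers of other cells went the other way, at 5902 to 6207 in DMSO and 9291 to 9797 with teriflunomide. Such sums rest mainly on the brightest genes, here MYCN (15.11 in DMSO) in the first list and COL1A1, COL3A1 and LUM in the other. For ACTB, the probes near the 3' end exceeded those near the 5' end by 1.36 ± 0.03 in DMSO and by 1.62 ± 0.07 in treated cells (log2, SD, n = 3 each). That gap reflects how intact or long the labelled RNA was, and no smaller p than its exact permutation p = 0.1 can arise with 3 against 3. The same gap for GAPDH was 0.049 ± 0.006 in DMSO and 0.063 ± 0.021 in treated cells (log2, SD). Its exact permutation p was 0.4. The marker sums and the ACTB gap differed between the same groups that every result below compares, and their part in the results was not tested.

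With teriflunomide, all 7 cargo receptors and all 3 MiT-TFE factors rose. So did MAP1LC3B, which encodes the best known LC3 protein, and WIPI1. The genes of the kinase complexes and of the conjugation systems moved in both directions and by less than 2-fold. Of the 40 genes, 22 rose, 7 fell and 11 stayed short of the threshold, and their median log2 fold change was 0.24. Of all 11998 genes tested, 58.6% were called, 29.7% higher and 28.9% lower, and their median was 0.0015. Among the members 55% rose and 17.5% fell. A gene was called when its limma adjusted p, by Benjamini-Hochberg over the 11998 genes, was under 0.05. RNA was taken from whole cultures, in which fewer cells of a type and less RNA per cell cannot be told apart.

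At least 2-fold, 9 members rose, against 5.24% of all genes, and 0 fell, against 4.53% of all genes. With no lower limit on size, limma gave 7 members lower at an unadjusted p under 0.05. The groups' arrays did not overlap for 32 of the 40 members, 23 of them higher and 9 lower with teriflunomide. Of all genes, 67% had groups that did not overlap, 33.9% higher and 33.1% lower. The representative probe set lay above log2 5 on all 6 arrays for 39 of the 40 members, GABARAPL1 being the other. The plot of each gene's arrays shows this separation gene by gene.

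**Figure D1:**
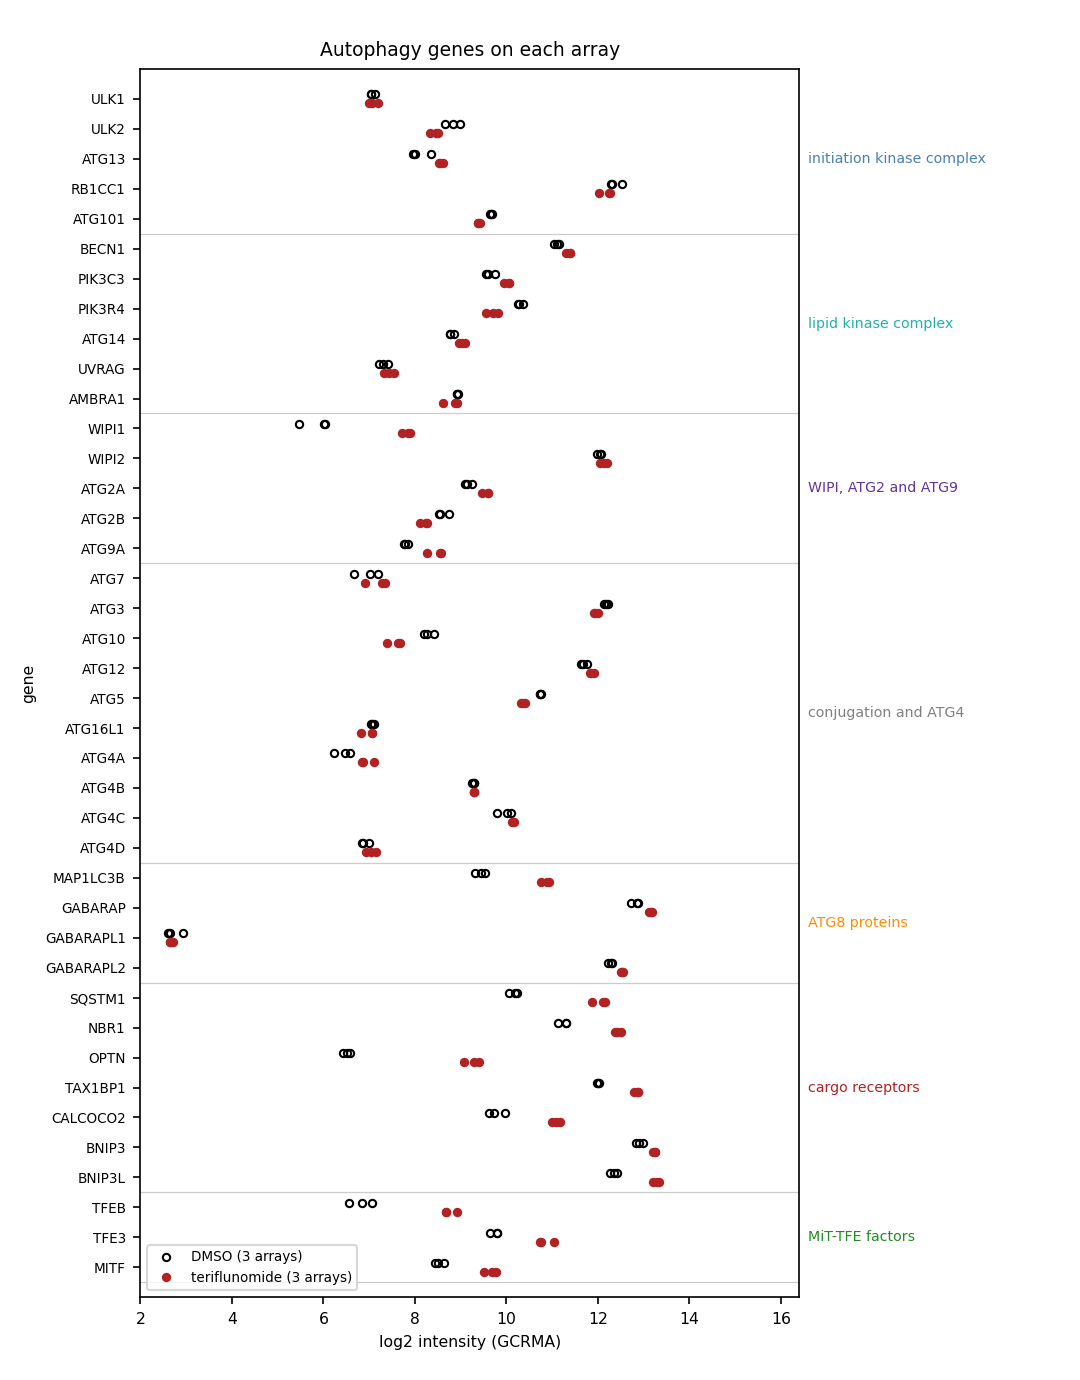
Log2 intensity (horizontal axis) of the representative probe set of each of the 40 genes, grouped by role; open circles are the 3 DMSO arrays and filled circles the 3 teriflunomide arrays. All filled circles of the 7 cargo receptors and 3 MiT-TFE factors lie to the right of the open ones, and GABARAPL1 lies near the floor of 2.18.

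The regulatory sequence just before the start of the 5 members that rose most is shown to give the reader the DNA behind the values. Each run is the 100 bases before the first listed start of the gene, 5′ to 3′ on the gene's own strand, from RefSeq with build GRCh38.p14. Capitals mark a match to one of 4 motifs searched on both strands, and lower case is all other sequence. The motifs were CACGTG, the E-box bound by MiT-TFE and other basic helix-loop-helix factors; GTCACGTG, part of the longer CLEAR element; TGATGNAA, a core of the CHOP and ATF4 composite element; and TGACNNNGC, the core of the antioxidant response element.
OPTN, chr10:13099982-13100081, plus strand: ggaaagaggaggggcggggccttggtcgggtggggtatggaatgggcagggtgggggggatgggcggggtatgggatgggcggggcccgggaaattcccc
WIPI1, chr17:68457497-68457596, minus strand: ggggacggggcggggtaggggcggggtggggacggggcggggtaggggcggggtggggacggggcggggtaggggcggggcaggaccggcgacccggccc
TFEB, chr6:41735609-41735708, minus strand: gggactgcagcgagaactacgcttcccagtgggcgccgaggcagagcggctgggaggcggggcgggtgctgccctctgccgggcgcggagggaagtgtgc
SQSTM1, chr5:179806293-179806392, plus strand: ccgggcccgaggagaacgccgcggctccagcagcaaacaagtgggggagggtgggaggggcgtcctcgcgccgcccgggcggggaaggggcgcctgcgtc
MAP1LC3B, chr16:87392236-87392335, plus strand: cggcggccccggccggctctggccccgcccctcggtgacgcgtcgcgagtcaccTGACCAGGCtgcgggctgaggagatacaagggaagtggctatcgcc

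These stretches held 71% (OPTN) to 86% (WIPI1) G and C. RefSeq windows of 300 bases, 250 before a start and 50 after it, were matched for 36 of the 40 members, several of which have more than 1 start, giving 48 windows. CACGTG was found in 3 of the 48 member windows (6.25%) and in 7.26% of all 35116 windows. GTCACGTG, which contains CACGTG, was in 2 member windows (4.17%) and in 2.40% of all. TGATGNAA was in 0 member windows and in 3.62% of all, and TGACNNNGC in 3 member windows (6.25%) and 13.3% of all. A match is a run of letters and not a shown binding site, and the absence of a match says only that the letters were not in this window.

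The other members with a match before a start are shown next with flanking bases, since they include genes that rose and genes that fell.
ATG3, chr3:112561963-112561997, minus strand: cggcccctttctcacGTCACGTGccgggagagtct
ATG14, chr14:55411831-55411866, minus strand: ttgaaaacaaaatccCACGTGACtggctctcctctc
BNIP3, chr10:131982037-131982072, minus strand: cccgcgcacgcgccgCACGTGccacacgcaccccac
ATG101, chr12:52069843-52069881, plus strand: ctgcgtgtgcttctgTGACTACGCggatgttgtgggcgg
CALCOCO2, chr17:48830891-48830929, plus strand: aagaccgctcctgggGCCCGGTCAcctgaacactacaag

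The first base of the match lay 20 bases before the start in ATG3, 21 in ATG14, 134 in BNIP3, 120 in ATG101, 129 in CALCOCO2 and 46 in MAP1LC3B. Of the 3 members with CACGTG, BNIP3 and ATG14 rose and ATG3 fell. The ATG3 window also held a further GTCACGTG, not printed above, that began at base 4 counted from the start. Of the 3 with TGACNNNGC, MAP1LC3B and CALCOCO2 rose and ATG101 fell. The windows of TFEB, TFE3, MITF, SQSTM1, OPTN, NBR1, TAX1BP1 and WIPI1 held none of the 4 motifs.

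The ULK complex moved little and in both directions. Of its 5 genes 1 rose and 2 fell, and the median log2 fold change was -0.21. ULK1, the kinase that mTORC1 and AMPK phosphorylate, was 7.13, 7.04 and 7.03 in DMSO and 7.19, 7.05 and 7.00 with teriflunomide, so that the groups overlapped (log2 fold change 0.01, SE 0.06, limma adjusted p = 0.858). Its relative ULK2 was 8.67, 9.00 and 8.83 in DMSO and 8.33, 8.52 and 8.46 with teriflunomide, a fall of every treated array below every control (-0.40, SE 0.10, limma adjusted p = 0.0171). The other 3 ULK2 probe sets stood between -0.14 and -0.18 and did not pass. Over all arrays they averaged 7.07, 4.34 and 3.34 (log2), the lower values being dim. ATG101, which stabilises ATG13, fell from 9.66 ± 0.02 in DMSO (SD, n = 3) to 9.40 ± 0.02 in treated cells (SD, n = 3), with a limma adjusted p = 0.000863.

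ATG13, the adaptor of the kinase, was 7.96, 8.00 and 8.36 in DMSO and 8.54, 8.52 and 8.61 with teriflunomide. This was a rise of 0.45 (SE 0.11, limma adjusted p = 0.0180). Its other 2 tested probe sets, dim at means of 4.89 and 3.38, stood at 0.22 and 0.24 without passing. RB1CC1, which encodes the scaffold FIP200, stood at -0.21 (SE 0.10, limma adjusted p = 0.123). Although its arrays did not overlap between groups, the gap between them was small. The ATG13 call was lost with no filter and without DMSO replicate 1, DMSO replicate 2, teriflunomide replicate 1 or teriflunomide replicate 3, where the adjusted p was at most 0.0595. The ULK2 call was lost with no filter, with a plain-suffix probe set and without DMSO replicate 3 or teriflunomide replicate 1. That plain-suffix probe set was the dimmest of the gene, at a mean of 3.34.

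The lipid kinase complex also moved in both directions, with 3 of 6 genes higher, 1 lower and 2 not past the threshold (median 0.18). PIK3R4, the VPS15 subunit that anchors the kinase, was 10.26, 10.36 and 10.28 in DMSO and 9.70, 9.82 and 9.55 with teriflunomide. All treated arrays lay below all controls, and it fell by 0.61 (SE 0.08, limma adjusted p = 0.00127). BECN1, the regulatory subunit Beclin, rose by 0.27 (SE 0.04) on its representative probe set and by 0.35 on its other tested one. ATG14, which directs the complex to autophagy, rose by 0.23 (SE 0.05). Both the BECN1 and the ATG14 call were lost with centring on poly-A spikes, at 0.19 and 0.14.

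PIK3C3, the catalytic subunit VPS34, had probe sets that were called in opposite directions. The representative one was 9.55, 9.76 and 9.60 in DMSO and 10.06, 10.05 and 9.94 with teriflunomide, a rise of 0.38 (SE 0.07, limma adjusted p = 0.00526). Of the other 3 tested, 1 fell by 0.96, 1 fell by 0.27 and 1 stood at 0.10 without passing. As the mean of its probe sets PIK3C3 changed by -0.19 (limma adjusted p = 0.0351), so that the direction of this gene is not settled by these probe sets. UVRAG, which joins the complex in endosome maturation, stood at 0.12 and AMBRA1, a scaffold that binds Beclin, at -0.13, and neither passed.

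Among the genes that read the lipid mark and supply membrane, WIPI1 had the largest change. It was 6.02, 5.46 and 6.04 in DMSO and 7.72, 7.89 and 7.85 with teriflunomide, which set the groups apart by more than the spread within either. This was a 3.95-fold rise (log2 fold change 1.98, SE 0.17, limma adjusted p = 0.000370), and its other probe set rose by 2.05. WIPI2, which recruits the conjugation machinery, stood at 0.11 (SE 0.05, limma adjusted p = 0.125). Of its 4 tested probe sets, 1 rose, by 0.18, and the others stood between -0.22 and 0.11.

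ATG9A, a lipid scramblase carried on vesicles, rose from 7.80 ± 0.05 (SD, n = 3) to 8.46 ± 0.17 (SD, n = 3), a log2 fold change of 0.66. The related lipid transfer proteins ATG2A and ATG2B moved apart. ATG2A was 9.24, 9.15 and 9.10 in DMSO and 9.47, 9.59 and 9.59 with teriflunomide, a rise of 0.39. ATG2B was 8.74, 8.55 and 8.52 in DMSO and 8.11, 8.25 and 8.23 with teriflunomide, a fall of 0.40, and its other tested probe set stood at -0.43 without passing. In this role 3 of 5 genes rose and 1 fell.

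The conjugation systems and the ATG4 proteases had the largest share of genes that did not pass, 5 of 10, with 2 higher, 3 lower and a median of 0.08. ATG10, the E2-like enzyme of the ATG12 system, changed most. It was 8.21, 8.41 and 8.27 in DMSO and 7.39, 7.66 and 7.63 with teriflunomide, all below the controls (-0.73, SE 0.09, limma adjusted p = 0.00147). Of its other 2 tested probe sets, 1 fell by 0.55 and 1 stood at -0.49 without passing. ATG3, the E2-like enzyme for the ATG8 proteins, fell by 0.23 (SE 0.04) on the representative probe set and by 0.92 on its other one.

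ATG5, which ATG12 is attached to, gave opposite calls on its 3 probe sets. The representative one was 10.76, 10.73 and 10.73 in DMSO and 10.33, 10.40 and 10.36 with teriflunomide, a fall of 0.37 (SE 0.03). Another fell by 0.45, and the remaining one rose by 0.29. As the mean of the 3, ATG5 changed by -0.18 (limma adjusted p = 0.0184).

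ATG12 itself rose by 0.17 (SE 0.05, limma adjusted p = 0.0316), and its other 2 probe sets stood at 0.04 and -0.01. The ATG12 call was lost in 8 of the 17 other settings, with adjusted p-values up to 0.467. These included each fit without DMSO replicate 1, DMSO replicate 3, teriflunomide replicate 1 or teriflunomide replicate 3. ATG7, the E1-like enzyme of both systems, stood at 0.22 (SE 0.18, limma adjusted p = 0.340), while another of its probe sets rose by 0.32. ATG16L1, which places the ATG12 and ATG5 conjugate on the membrane, stood at -0.09.

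Of the 4 proteases that trim ATG8 proteins, ATG4A rose. It was 6.23, 6.48 and 6.58 in DMSO and 6.85, 7.10 and 6.87 with teriflunomide (0.51, SE 0.12, limma adjusted p = 0.0122). ATG4B stood at 0.01 on a probe set that read 9.29 on all 3 teriflunomide arrays, and another of its probe sets fell by 0.21. ATG4C and ATG4D stood at 0.18 and 0.14 and did not pass, although ATG4C did without DMSO replicate 2, at 0.24.

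Among the 4 ATG8 genes, 3 rose and 0 fell, and limma gave 0 lower at an unadjusted p under 0.05 too. MAP1LC3B was 9.53, 9.31 and 9.45 in DMSO and 10.94, 10.75 and 10.89 with teriflunomide. Every treated array stood above every control, and the rise was 2.69-fold (log2 fold change 1.43, SE 0.08, limma adjusted p = 8.59e-05). Its other probe set, at 8.88, 8.91 and 8.82 in DMSO and 10.37, 10.41 and 10.47 with teriflunomide, rose by 1.54. Both carry the _s suffix, which marks probe sets that can bind several related transcripts, so a near-identical copy of the gene could contribute to them.

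GABARAP and GABARAPL2, members of the other ATG8 subfamily, rose by less. GABARAP was 12.88, 12.73 and 12.86 in DMSO and 13.18, 13.11 and 13.15 with teriflunomide, a rise of 0.32 (SE 0.05, limma adjusted p = 0.00336). GABARAPL2 was 12.23, 12.31 and 12.29 in DMSO and 12.50, 12.54 and 12.55 with teriflunomide, a rise of 0.26 (SE 0.03, limma adjusted p = 0.00169). With centring on poly-A spikes both kept a positive change, 0.24 and 0.17, but did not pass. GABARAPL1 had 1 probe set at the floor and 1 at 2.61 to 2.93, near the floor, and no change can be read from either.

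All 7 cargo receptors rose, where 29.7% of all genes did, and 4 of them rose at least 2-fold, against 5.24% of all genes. All 3 MiT-TFE factors also rose, each at least 2-fold. The members were chosen with earlier results of these data known, so these shares only describe them. The median log2 fold change of the receptors was 1.19. For all 7 receptors every teriflunomide array lay above every DMSO array, as it did for 33.9% of all genes. Of the receptors' 21 tested probe sets, 19 rose, 0 fell and 2 did not pass. Of all 27290 probe sets tested, 48.8% were called, 23.7% higher and 25.2% lower.

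OPTN, which encodes optineurin, a receptor for ubiquitin-coated mitochondria and bacteria, rose most of the 40 genes. It was 6.42, 6.51 and 6.59 in DMSO and 9.39, 9.30 and 9.08 with teriflunomide, a 6.74-fold rise (log2 fold change 2.75, SE 0.09, limma adjusted p = 3.09e-05). The gap between the groups was far wider than the spread within them. Its absolute change exceeded that of 99.4% of all genes tested. The other OPTN probe set rose by 3.12 from 4.28 ± 0.62 (SD, n = 3) to 7.40 ± 0.26 (SD, n = 3), a start nearer the floor.

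SQSTM1 encodes p62, a receptor for ubiquitinated proteins that also binds KEAP1. It was 10.23, 10.05 and 10.19 in DMSO and 12.16, 11.87 and 12.10 with teriflunomide, a 3.70-fold rise (log2 fold change 1.89, SE 0.09, limma adjusted p = 6.78e-05). All 5 SQSTM1 probe sets rose, by 1.33 to 3.04. The probe set with the largest change went from 5.36 ± 0.22 (SD, n = 3) to 8.40 ± 0.24 (SD, n = 3). The direction was thus shared by every probe set of the gene, while the size differed between them.

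NBR1, a receptor related to p62, was 11.12, 11.30 and 11.31 in DMSO and 12.50, 12.42 and 12.38 with teriflunomide, a 2.28-fold rise (log2 fold change 1.19, SE 0.07). Its other bright probe set rose by 1.30, and the 2 dim ones, below log2 5 on all arrays, stood at 0.82 and 0.37 without passing. CALCOCO2, which encodes NDP52, was 9.62, 9.98 and 9.73 in DMSO and 11.09, 11.16 and 11.00 with teriflunomide. Its rise was 2.47-fold (log2 fold change 1.31, SE 0.10, limma adjusted p = 0.000265), and its other tested probe sets rose by 1.13 and 0.31, the last of them dim.

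TAX1BP1, a receptor of the same family as NDP52, was 11.97, 12.03 and 12.01 in DMSO and 12.78, 12.88 and 12.89 with teriflunomide. It rose 1.80-fold (log2 fold change 0.84, SE 0.04), and its 3 probe sets lay between 0.84 and 0.90, the closest agreement among the receptors with 3 or more tested probe sets.

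The mitochondrial outer membrane receptors BNIP3 and BNIP3L, which bind ATG8 proteins directly, rose by different amounts. BNIP3L, also called NIX, was 12.26, 12.43 and 12.35 in DMSO and 13.29, 13.19 and 13.35 with teriflunomide, a 1.91-fold rise (log2 fold change 0.93, SE 0.06). BNIP3, a known target of hypoxia-inducible factors, was 12.83, 12.97 and 12.89 in DMSO and 13.24, 13.24 and 13.21 with teriflunomide, a 1.26-fold rise (log2 fold change 0.33, SE 0.05). The other probe sets of these genes gave 0.98 for BNIP3L and 0.37 for BNIP3. The NBR1 rise was 0.37 and did not pass (limma adjusted p = 0.0955) where a plain-suffix probe set was preferred, a dim one.

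**Figure D2:**
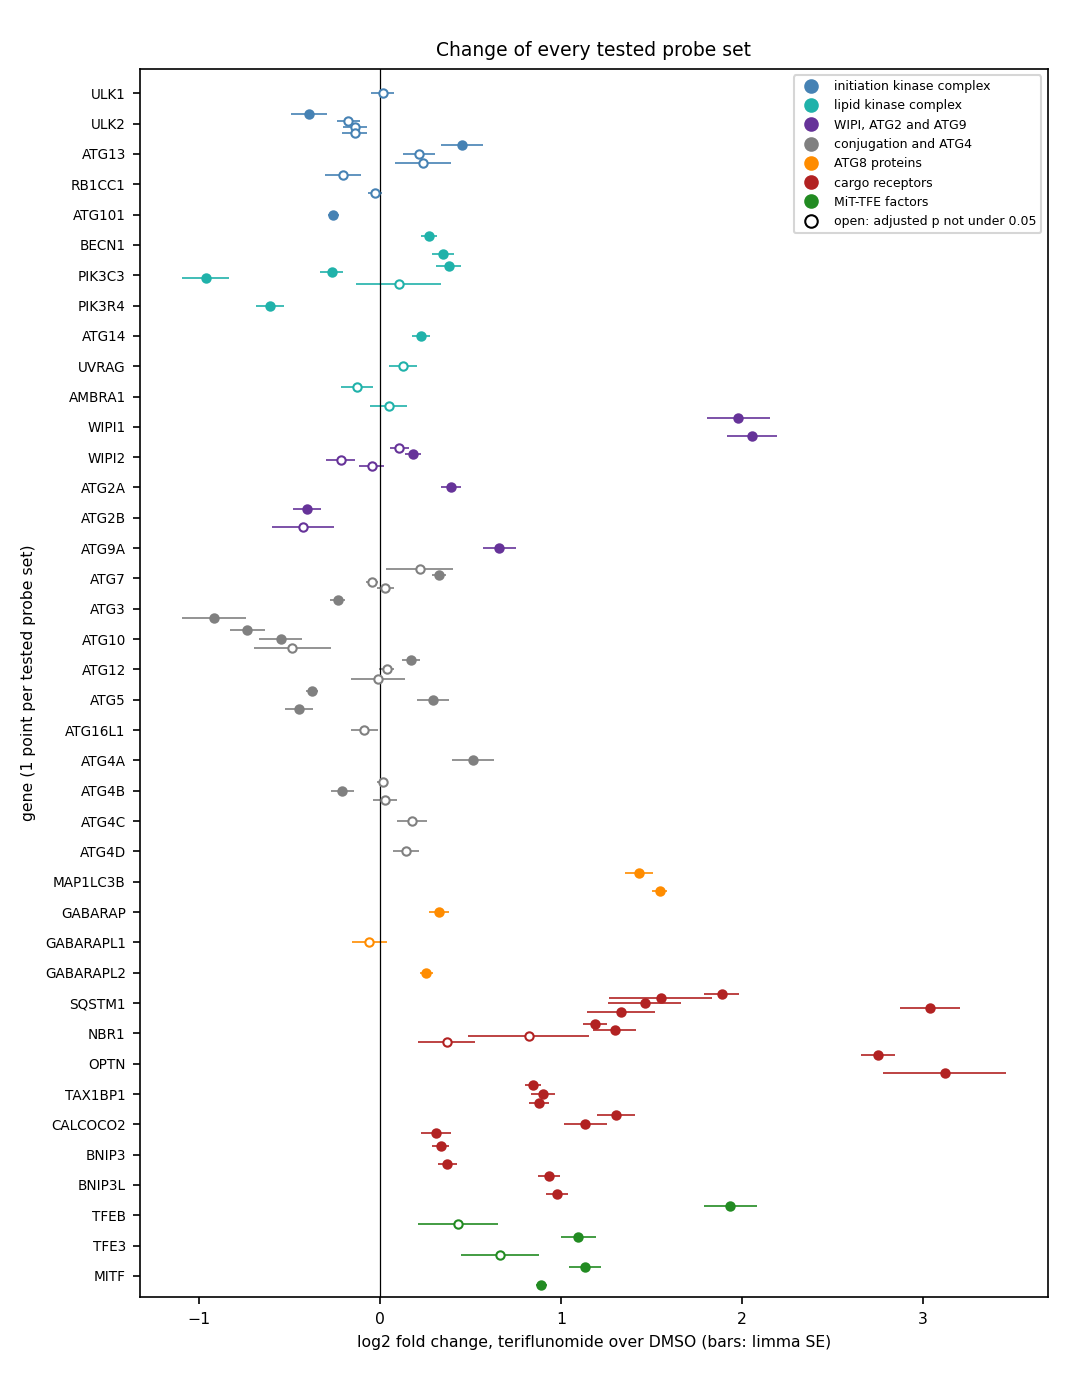
Log2 fold change of teriflunomide over DMSO (horizontal axis) for each of the 86 tested probe sets, by gene and coloured by role; bars are limma standard errors, and open points did not pass at an adjusted p of 0.05 over the 27290 probe sets. All 5 SQSTM1 points lie between 1.33 and 3.04, while PIK3C3 and ATG5 have filled points on both sides of 0.

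All 3 MiT-TFE genes rose at least 2-fold, with a median log2 fold change of 1.13. TFEB was 6.57, 7.06 and 6.84 in DMSO and 8.92, 8.68 and 8.69 with teriflunomide, a 3.83-fold rise (log2 fold change 1.94, SE 0.14, limma adjusted p = 0.000209). Its other probe set was 5.76, 6.37 and 6.39 in DMSO and 6.41, 6.88 and 6.52 with teriflunomide. There the groups were barely apart, and the difference of 0.43 did not pass (adjusted p = 0.167 over all probe sets by limma). As the mean of both, TFEB rose by 1.18.

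TFE3 was 9.80, 9.65 and 9.80 in DMSO and 11.03, 10.73 and 10.77 with teriflunomide, a 2.14-fold rise (log2 fold change 1.09, SE 0.10, limma adjusted p = 0.000377). Its other tested probe set stood at 0.66 and did not pass (adjusted p = 0.0529 over all probe sets by limma). MITF, the factor of pigment cells that is also made in other tissues, was 8.43, 8.64 and 8.51 in DMSO and 9.76, 9.52 and 9.69 with teriflunomide. It rose 2.19-fold (log2 fold change 1.13, SE 0.09, limma adjusted p = 0.000228), and its other tested probe set rose by 0.89. The arrays measure transcripts, so the location of these factors in the cell was not measured.

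**Figure D3:**
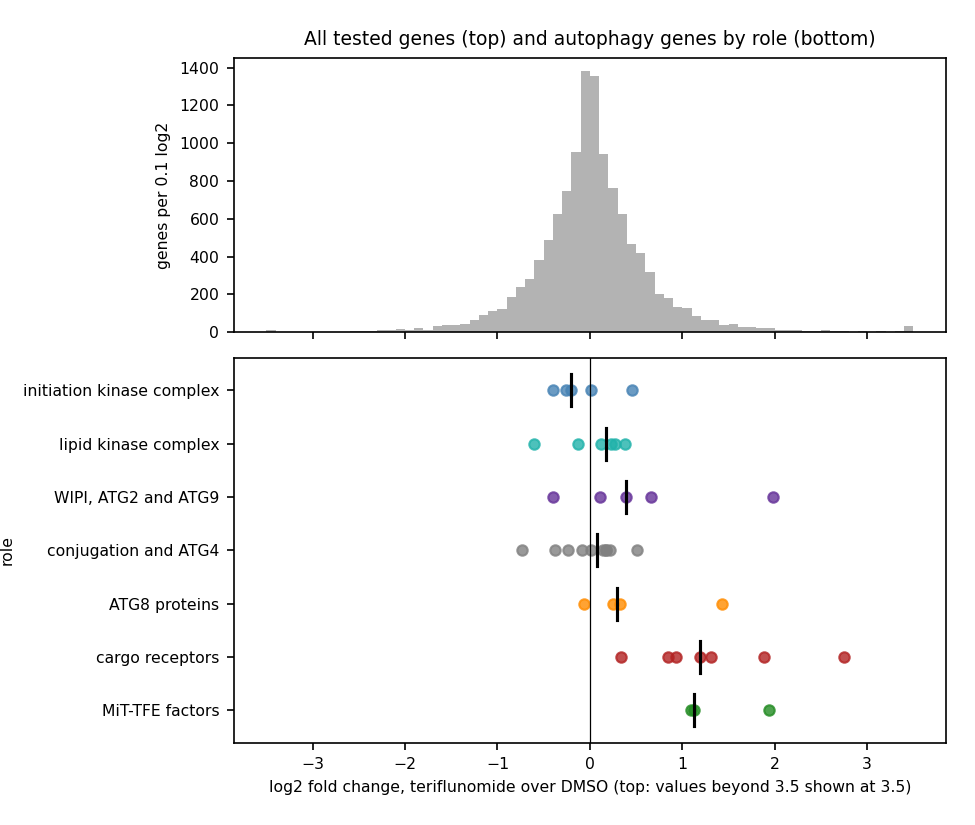
Top, number of genes per 0.1 log2 step of fold change for all 11998 tested genes, with values beyond 3.5 drawn at 3.5; bottom, the 40 genes by role on the same horizontal axis, with a black line at each role's median. The medians of the cargo receptors (1.19) and MiT-TFE factors (1.13) lie to the right of the bulk, and that of the conjugation genes (0.08) lies within it.

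Probe sets of the same gene could be compared for the 26 members with at least 2 tested. For 11 of them all tested probe sets were called alike, for 11 some were called in 1 direction and the rest did not pass, for 2 none was called, and for 2, PIK3C3 and ATG5, calls were opposite. The 11 whose probe sets were all called alike were SQSTM1, OPTN, TAX1BP1, CALCOCO2, BNIP3, BNIP3L, MAP1LC3B, WIPI1, MITF, BECN1 and ATG3. How often the probe sets of a gene were called alike or opposite over all genes was not counted, so these counts have no background beside them. Over all tested member probe sets 41 rose, 13 fell and 32 did not pass. Of all 27290 probe sets tested, 23.7% rose and 25.2% fell.

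Other genes of the pathway were taken from 4 lists. Of 17 tested genes of the remaining core machinery, 11 rose and 0 fell (0 also at an unadjusted p under 0.05 by limma), and their median was 0.35. That is 64.7% higher, against 29.7% of all genes. The count of genes lower was 0 in all but 3 of the other settings, with 1 as the average over a gene's probe sets, 1 with the replicate block and 2 with a plain suffix preferred. WDR45, which encodes the WIPI4 protein that binds ATG2, was 8.47, 8.37 and 8.54 in DMSO and 9.74, 9.70 and 9.74 with teriflunomide, a rise of 1.27 (SE 0.05, limma adjusted p = 3.85e-05). MAP1LC3A, a relative of MAP1LC3B, rose by 1.01 (SE 0.12). Of the remaining 4 genes of this list, all were below the filter.

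Of 15 tested genes of other selective receptors and mitophagy, 7 rose and 2 fell, with a median of 0.15. The share called was 60%, near the 58.6% of all genes, with 46.7% higher against 29.7% and 13.3% lower against 28.9%. CCPG1, a receptor for the endoplasmic reticulum, was 5.73, 6.33 and 6.17 in DMSO and 8.53, 8.74 and 8.56 with teriflunomide, a 5.77-fold rise (log2 fold change 2.53, SE 0.17, limma adjusted p = 0.000149). This value rests on a single tested probe set, which carries the _x suffix and may also bind other transcripts. PINK1, the kinase that marks damaged mitochondria, rose by 1.15 (SE 0.07). RETREG1, another endoplasmic reticulum receptor, fell by 0.46 (SE 0.08). WDFY3, a large scaffold for protein aggregates, fell by 0.34 (limma adjusted p = 0.0442), a call lost in 8 other settings. Averaged over its probe sets WDFY3 stood at -0.05 (limma adjusted p = 0.693). The call was also lost without DMSO replicate 1, 2 or 3 or teriflunomide replicate 1 or 2, which left RETREG1 as the 1 gene of the list that fell.

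Of 27 tested regulators of the MiT-TFE factors and of mTORC1 at the lysosome, 12 rose and 8 fell, and their median was 0.04. The 29.6% lower was near the 28.9% of all genes, and 44.4% were higher against 29.7%. The 8 became 5 with no filter, 3 with a filter at the 75th percentile, and 5 without DMSO replicate 1, DMSO replicate 3 or teriflunomide replicate 2. DEPTOR, an inhibitor of mTOR, rose by 1.46 (SE 0.15). FLCN, which encodes folliculin, a partner of the Rag GTPases needed to keep TFEB and TFE3 phosphorylated, was 8.86, 8.86 and 8.66 in DMSO and 9.76, 9.97 and 10.17 with teriflunomide, a rise of 1.18 (SE 0.12). GSK3B, a kinase that phosphorylates TFEB, fell by 0.95 (SE 0.04, limma adjusted p = 3.59e-05), and stood at -0.49 as the average over its probe sets. RRAGB, a Rag GTPase, changed by -1.13 (SE 0.28), and by -0.47 with values under log2 5 raised to 5. It lost its call with no filter and without DMSO replicate 1, DMSO replicate 3 or teriflunomide replicate 2. Of the genes of mTORC1 itself, named after their values were seen, the kinase gene MTOR stood at 0.04 (limma adjusted p = 0.420), while RPTOR, AKT1S1 and MLST8 changed by -0.71, -0.71 and -0.24 and DEPTOR rose as given above.

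Of 15 tested genes reported as MiT-TFE targets, 11 rose and 0 fell (0 also at an unadjusted p under 0.05 by limma), and their median was 0.65. That is 73.3% higher, against 29.7% of all genes. GPNMB, a glycoprotein gene, was 2.89, 3.46 and 2.73 in DMSO and 8.59, 8.41 and 8.84 with teriflunomide. Its rise of 5.58 started near the floor and was 3.61 with values under log2 5 raised to 5. NEU1, a lysosomal sialidase, rose by 1.27 (SE 0.04), FNIP2, the partner of folliculin, by 0.35 (SE 0.07) and RRAGD by 0.30 (SE 0.04). FLCN, FNIP2, RRAGD and MCOLN1 belong to this list and to the previous one. CTSD, LAMP1, ATP6V0D1 and GLA, the 4 that did not pass, stood between 0.03 and 0.11.

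**Figure D4:**
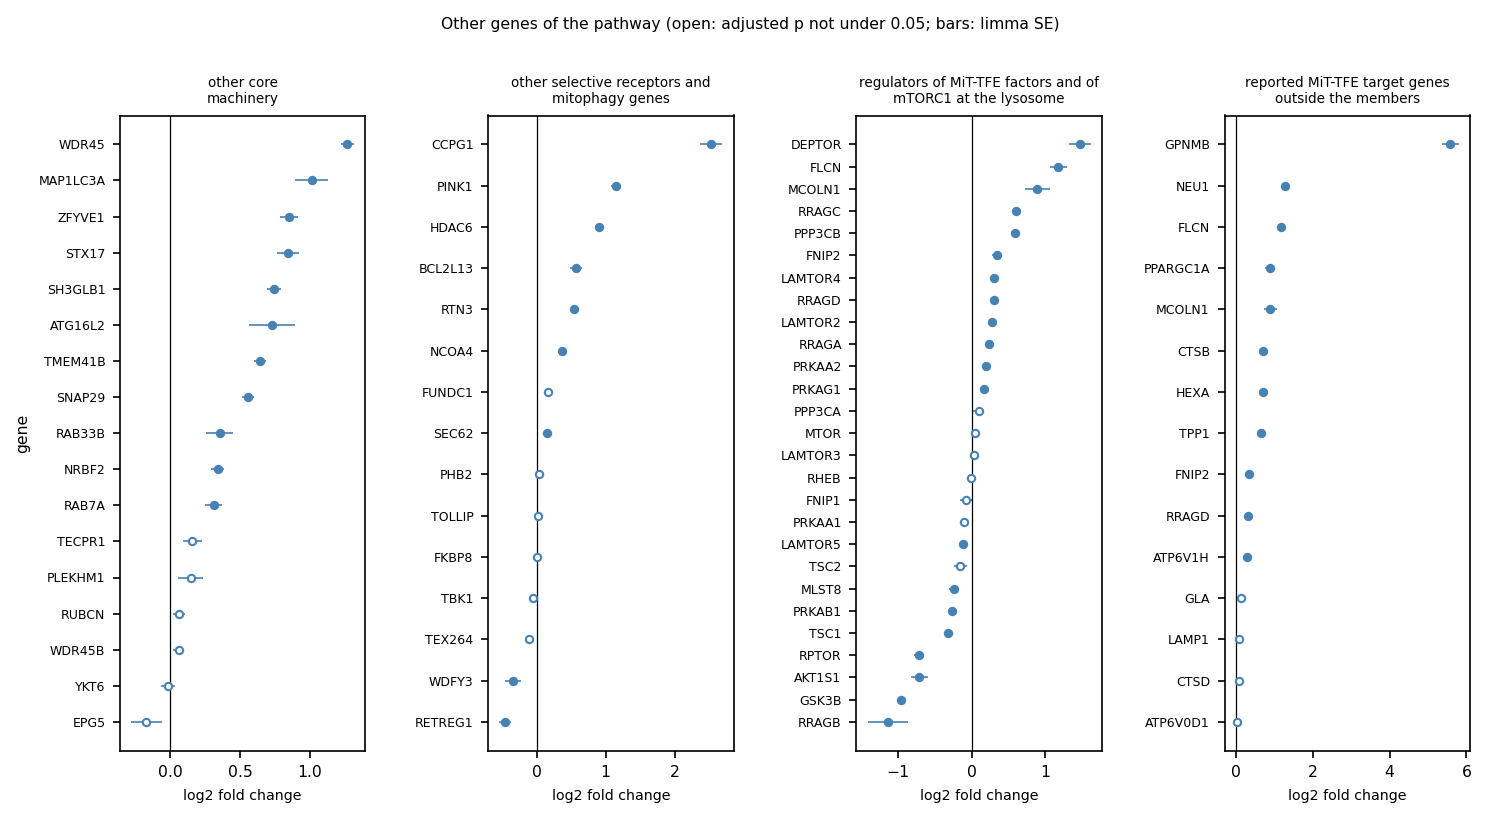
Log2 fold change of teriflunomide over DMSO (horizontal axes, scaled per panel) for the tested genes of the 4 lists, ordered by value; bars are limma standard errors and open points did not pass. In the first and last panel all filled points lie above 0, and in the regulator panel 12 lie above and 8 below.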

How the data were processed

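The authors deposited log2 intensities for each probe set on each array. The submitters' processing notes name GCRMA, with no version or settings given. This method models background from the bases of each probe and equalises the arrays' distributions, so dim values rest on that model and a change shared by all genes is hidden. Arrays give no read depth; their number, 3 per group, limits the precision.

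Of 54675 probe sets, 41097 had 1 gene symbol in the platform annotation, 1801 several and 11777 none; 1 of those with several symbols lists a member and was not used. A probe set entered the test when it reached the median of the array on 3 or more of the 6 arrays (27290 probe sets, controls left out). The groups were compared with limma 3.58.1 in R 4.3.3 (lmFit, eBayes, no covariates), two-sided, with Benjamini-Hochberg adjustment over 11998 genes, or over 27290 probe sets where probe sets are compared. Errors of fold changes are limma's standard errors (SE). The fit was tested on simulated data in which only a small share of the genes changed. That run therefore does not measure how many calls on these arrays are false. Python 3.11.15 searched the promoters and drew the plots. Named are all 40 members, the 2 genes of each list that rose and the 2 that fell most, and 4 genes fixed by name; other genes are named as markers, to complete a list or, where so stated, from their values. The members, lists and alternatives were chosen with earlier results of these data known. The alternatives were other filters, scalings, floors, probe set choices, variance models, a replicate block and leaving out each array.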

Additional observations from a re-analysis of the deposited data

How the results depend on the processing

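Of the 40 member genes, 29 kept the same call in all of the 17 other settings in which they were tested. A call here is higher, lower or not past the threshold, so the 29 include genes that never passed. The other 11 changed a call in at least 1 setting. Among the genes that passed, PIK3C3 alone reversed, from 0.38 to -0.19 as the average over its probe sets. ULK1, WIPI2, ATG7, ATG4B and GABARAPL1, which never passed, changed sign between settings. Centring on poly-A spikes, which moved the median of all genes from 0.0015 to -0.08, gave 17 members higher and 8 lower. It ended the calls of BECN1, ATG14, ATG12, GABARAP and GABARAPL2 and brought RB1CC1 past the threshold at -0.29. All 3 MiT-TFE factors were called higher in every setting run, and all 7 cargo receptors in every one but the plain-suffix choice, which left 6. As the average over its probe sets ATG3 stood at -0.58, and with a plain suffix preferred at -0.92, with ULK2 at -0.14; the cause was not tested.

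Without each array in turn, 20 to 22 members were higher and 6 to 7 lower, and the ACTB 3' minus 5' difference was 0.23 to 0.30. Of the 70 tested genes of the pathway lists, 37 rose (52.9%) and 10 fell (14.3%), against 29.7% and 28.9% of all genes. The 10 became 6 with no filter and 5 with a filter at the 75th percentile, where fewer genes were tested, and 6 to 10 without each array (6 without DMSO replicate 1, DMSO replicate 3 or teriflunomide replicate 2). Member probe sets numbered 36 to 39 higher and 11 to 13 lower over those fits.

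The groups share replicate numbers, but the deviations of same-numbered arrays correlated at 0.13, 0.15 and -0.05, so the numbers were not taken to pair them. With the replicate number as a block, 21 members were higher and 7 lower (39 and 16 of their probe sets), and 37 and 10 pathway list genes; ATG12 lost its call. Not every array correlated best with its own number.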

Other observations

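Among the members, 12 have been reported as targets of ATF4, of CHOP or of both in cells starved of amino acids: ATG16L1, MAP1LC3B, ATG12, ATG3, BECN1, GABARAPL2, SQSTM1, NBR1, ATG7, ATG10, GABARAP and ATG5. Here 7 of the 12 rose, 3 fell and 2 did not pass by limma, with a median log2 fold change of 0.24. Of all genes tested 29.7% rose and 28.9% fell, so the 25% of the 12 that fell was near the background, while 58.3% rose. Of the 7 that rose, BECN1, ATG12, GABARAP and GABARAPL2 lost their calls with centring on poly-A spikes. NBR1 lost its call with a plain suffix preferred, and ATG12 lost its call in 8 of 17 settings. Of the other 28 members 15 rose (53.6%) and 4 fell (14.3%), with a median of 0.28, so the shares that rose were similar in both parts. The largest changes among the 12 were those of SQSTM1 (1.89), MAP1LC3B (1.43) and NBR1 (1.19), while ATG10 (-0.73), ATG5 (-0.37) and ATG3 (-0.23) went the other way. The 3 members with the largest rises, OPTN (2.75), WIPI1 (1.98) and TFEB (1.94), are outside the 12.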
